A study of Mus musculus with 6 samples.

Results

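Serpins are a family of protease inhibitors, and 8 serpin genes of mouse tumours are described here: Serpina3f, Serpina3g, Serpina3i, Serpina3m, Serpina3n, Serpinb6b, Serpinb9 and Serpinb9b. They were chosen by name from the 43 serpin genes in a deposited table of 17352 genes, with the values of the comparison below already known. All 8 were found in the table. Their levels and fold changes are therefore a description, and their adjusted p-values, which are rows of a fit over all genes, give no independent support. The samples were 6 whole tumours of Panc02, a mouse pancreatic cancer cell line, grown under the skin of mice for 4 weeks. The hosts of 3 tumours (called deficient 3, 4 and 5 after their labels) lacked annexin A1 (Anxa1) in myeloid cells, a genotype written Anxa1ΔMɸ. The hosts of the other 3 (wild type 2, 3 and 5) were Anxa1flox/flox mice labelled wild type. All 6 labels also carry the letters HFD, which they do not define. The sources used here do not give the driver of the deletion or the age and sex of the hosts. Deletion in the host leaves the Anxa1 gene of the implanted cancer cells as it was.

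A serpin presents a reactive centre loop to a protease as bait, and the cleaved loop traps the enzyme in a covalent complex. The Serpina3 genes are a cluster of mouse paralogs that correspond to a single human gene, SERPINA3 (alpha-1-antichymotrypsin), an acute-phase protein. Serpina3n is the main secreted member in many mouse tissues and can block granzyme B, a serine protease that cytotoxic T cells and NK cells use to kill target cells. Serpina3g (also called Spi2A) stays inside the cell, inhibits lysosomal cathepsins and is known from activated and memory CD8 T cells. Serpinb9, a nuclear and cytosolic inhibitor of granzyme B, protects killer cells, antigen-presenting cells and tumour cells from that enzyme. In the mouse, Serpinb6b inhibits granzyme A, and Serpinb9b is a close relative of Serpinb9.

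Of the 8 genes, Serpina3f and Serpina3g rose in deficient tumours and the other 6 did not pass the test. The fit was limma on log2(FPKM + 1), where FPKM is a level scaled for gene length and library depth, and a gene was called at an adjusted p under 0.05 over all 12257 genes tested. All 8 passed the filter on low values, a mean FPKM of at least 0.5. Called as higher were 2 of the 8, against 0.979% of all tested genes, and called as lower were 0 of the 8, against 0.228% of all tested genes. At an unadjusted p under 0.05, Serpinb9 was added to these 2, a threshold that 1852 of the 12257 tested genes passed. In 3 of the 8 genes (Serpina3f, Serpina3g and Serpinb9) every deficient tumour lay above every wild-type tumour, as was so for 11.8% of all tested genes. The median log2 fold change was 0.27 over the 8 genes and 0.02 over all tested genes. Positive log2 fold changes were seen in 6 of the 8, against 54.7% of all tested genes. That share is also the background for the counts of higher genes in the lists below.

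The upstream sequences of the Serpina3 paralogs are shown because the paralogs differ there at motifs of known regulators. RefSeq promoters were taken from GRCm38.p6, from 250 bases before to 50 after the start. They matched 7 of the 8 genes by symbol, all but Serpina3m, and also Serpina3c, a paralog outside the set. They were searched on both strands for the gamma-activated site bound by STAT factors (TTCNNNGAA, the same on both strands), the interferon-stimulated response element (GAAA, any 2 bases and GAAA) and the NF-kappaB consensus. In the lines below, capitals mark matches to these motifs and, in Serpina3n and Serpina3c, the 9 letters that align with the gamma-activated site.
Serpina3f: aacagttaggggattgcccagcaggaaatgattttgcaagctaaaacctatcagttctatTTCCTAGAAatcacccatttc
Serpina3g: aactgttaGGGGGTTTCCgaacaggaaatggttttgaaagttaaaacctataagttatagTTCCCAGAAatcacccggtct
Serpina3i: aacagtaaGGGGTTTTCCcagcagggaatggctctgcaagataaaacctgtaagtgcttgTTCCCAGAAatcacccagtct
Serpina3n: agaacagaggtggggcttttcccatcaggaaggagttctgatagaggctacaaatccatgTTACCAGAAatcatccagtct
Serpina3c: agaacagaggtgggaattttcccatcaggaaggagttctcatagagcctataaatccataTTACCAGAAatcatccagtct

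These stretches lie at chr12:104214363-104214443 (Serpina3f), chr12:104236054-104236134 (Serpina3g), chr12:104262960-104263040 (Serpina3i) and chr12:104406525-104406605 (Serpina3n) on the plus strand and at chr12:104153972-104154052 (Serpina3c) on the minus strand. The gamma-activated site pattern was present in Serpina3f, Serpina3g and Serpina3i, with its first base 121, 33 and 102 bases before the RefSeq start in this order, and in 8.30% of all 32851 promoters of the same length. A second RefSeq start of Serpina3f puts the same site 210 bases before it. Serpina3n and Serpina3c carried TTACCAGAA at that place, which is not a match. The NF-kappaB consensus matched in Serpina3g and Serpina3i and in 4.51% of all promoters. Serpina3i held both motifs, as Serpina3g did, and did not pass the test. It was near the filter on low values (mean 0.546 FPKM, 24 to 94 fragments in a tumour). Whether these motifs bear on the levels of the paralogs was not tested. The promoters of Serpina3n and Serpina3c were 93.5% identical over 294 aligned bases, and those of Serpina3f and Serpina3g 83.7% over 202.

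Serpinb9 and Serpinb9b are also shown as a pair, since they differ at an interferon-stimulated response element. In the lines below, capitals mark the match in Serpinb9, on its opposite strand, and the aligned 10 letters of Serpinb9b, which do not match.
Serpinb9: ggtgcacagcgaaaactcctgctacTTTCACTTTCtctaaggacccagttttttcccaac
Serpinb9b: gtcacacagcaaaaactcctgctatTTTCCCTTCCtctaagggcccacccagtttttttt

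They lie at chr13:33004470-33004529 and chr13:33027339-33027398, both on the plus strand. The pattern was found in 3.44% of all promoters, and the promoter of Serpinb6b held 0 matches to any of the motifs. Whether the element bears on the levels of these genes was not tested.

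Serpina3g, the intracellular cathepsin inhibitor, had FPKM of 35.7, 23.1 and 36.4 in deficient 3, 4 and 5, against 11.2, 9.59 and 13.5 in wild type 2, 3 and 5. The lowest deficient tumour, deficient 4, was still above the highest wild-type tumour. Serpina3g averaged 31.7 ± 7.49 FPKM in deficient tumours and 11.4 ± 1.97 FPKM in wild-type tumours (SD, n = 3 each). Its log2 fold change was 1.38 (SE 0.19, 95% interval 0.94 to 1.82, adjusted p = 0.032). Serpina3f, its neighbour in the cluster, had FPKM of 8.26, 3.86 and 7.66 in deficient 3, 4 and 5, against 1.32, 1.84 and 1.40 in wild type 2, 3 and 5. Again deficient 4 was the lowest of its group and the groups did not overlap. Serpina3f averaged 6.59 ± 2.39 FPKM in deficient tumours and 1.52 ± 0.281 FPKM in wild-type tumours (SD, n = 3 each). Its log2 fold change was 1.54 (SE 0.24, 95% interval 0.98 to 2.10, adjusted p = 0.038). At this low level the size depends on the 1 added to each FPKM before the log. It was 1.99 with 0.1 added and 1.25 with 2 added, against 1.45 and 1.31 for Serpina3g. The values of Serpina3f rest on an implied 363 to 709 fragments in each deficient and 119 to 164 in each wild-type tumour, and those of Serpina3g on 1811 to 2616 and on 712 to 1003. Both calls were lost without any 1 tumour other than deficient 4 and with no filter on low values, while the log2 fold changes without 1 tumour stayed between 1.27 and 1.59 for Serpina3g and between 1.37 and 1.84 for Serpina3f.

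**Figure D1:**
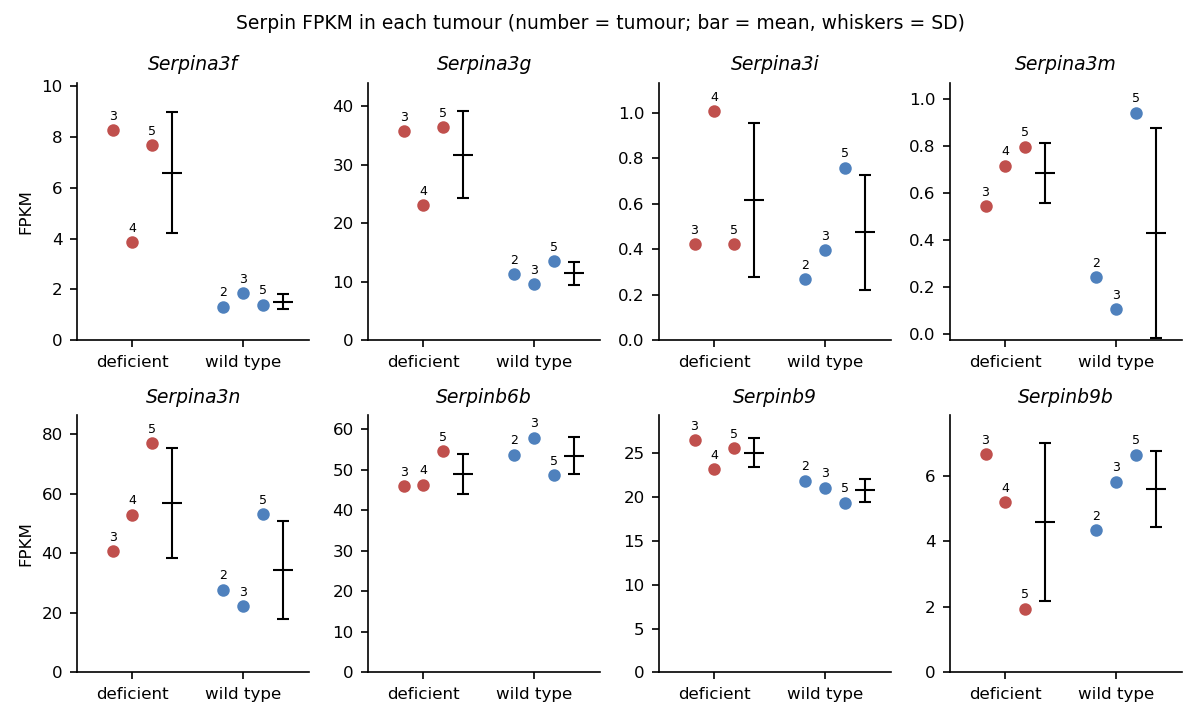
FPKM (vertical axis, linear) of the 8 serpins in each tumour, deficient left and wild type right in each panel, with points numbered by tumour, a bar for the mean and whiskers for the SD (n = 3). Serpina3f, Serpina3g and Serpinb9 show no overlap between groups, and Serpina3n is high in both tumours numbered 5 (77.0 in deficient and 53.1 in wild type).

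Serpina3n, the abundant secreted member, had FPKM of 40.7, 53.0 and 77.0 in deficient 3, 4 and 5, against 27.8, 22.2 and 53.1 in wild type 2, 3 and 5. The groups overlapped, since wild type 5 lay above deficient 3 and deficient 4. Serpina3n averaged 56.9 ± 18.4 FPKM in deficient tumours and 34.4 ± 16.5 FPKM in wild-type tumours (SD, n = 3 each), and the log2 fold change of 0.76 (SE 0.33, adjusted p = 0.338) had a 95% interval from -0.01 to 1.53. That interval includes 0 and also the fold change of Serpina3g. Leaving out 1 tumour moved it between 0.50 (without wild type 3) and 1.12 (without wild type 5), and it did not pass in any of these fits (adjusted p from 0.138 to 0.736).

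Serpina3i and Serpina3m, paralogs of little known function in tumours, were near the filter and rested on few fragments. Serpina3i had FPKM of 0.423, 1.01 and 0.421 in deficient tumours, against 0.268, 0.396 and 0.758 in wild-type tumours, from 36 to 94 and 24 to 67 fragments. Serpina3m had 0.545, 0.716 and 0.797 in deficient tumours, against 0.243, 0.108 and 0.941 in wild-type tumours, from 34 to 50 and 7 to 61 fragments. In both genes the groups overlapped. The log2 fold changes were 0.13 (95% interval -0.31 to 0.56, adjusted p = 0.797) for Serpina3i and 0.28 (-0.21 to 0.77, adjusted p = 0.582) for Serpina3m. The sign for Serpina3i turned without deficient 4 (-0.038), and Serpina3m was at 0.12 without wild type 3 and 0.52 without wild type 5. These fold changes understate changes of low genes, because 1 is added to each FPKM before the log.

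Because the paralogs are similar in sequence, reads of one could in principle be assigned to another. In the GENCODE M21 transcripts, 0% of the 150-base stretches (the read length) of Serpina3f, Serpina3g, Serpina3i and Serpina3n occurred in another serpin transcript, and 0.331% of those of Serpina3m did, shared with Serpina3k. Stretches of 50 bases were shared more often, 10.6% of them in Serpina3f, 15.5% in Serpina3g, 15.9% in Serpina3i, 19.1% in Serpina3m and 6.90% in Serpina3n. No source used here says how the authors' counting treated reads that match several paralogs.

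The Serpina3 genes together were more abundant in deficient tumours, and Serpina3n made up less of the total there. The summed FPKM of the 7 Serpina3 genes in the table was 86.9, 82.4 and 124.0 in deficient 3, 4 and 5, against 41.2, 34.2 and 70.6 in wild type 2, 3 and 5. Every deficient tumour exceeded every wild-type tumour, and the ratio of the means was 2.01. Without wild type 5, the wild-type tumour with the highest sum, it was 2.59. Serpina3n supplied 46.9%, 64.3% and 62.1% of the sum in deficient tumours, against 67.5%, 64.9% and 75.3% in wild-type tumours. Serpina3g supplied 41.1%, 28.1% and 29.3%, against 27.3%, 28.0% and 19.1%. Both shares kept the groups apart, but deficient 4 and wild type 3 differed by less than 1 percentage point in each. Serpina3f supplied 9.51%, 4.69% and 6.18%, against 3.196%, 5.38% and 1.99%, with wild type 3 above deficient 4. These shares and sums are descriptions with no test.

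**Figure D2:**
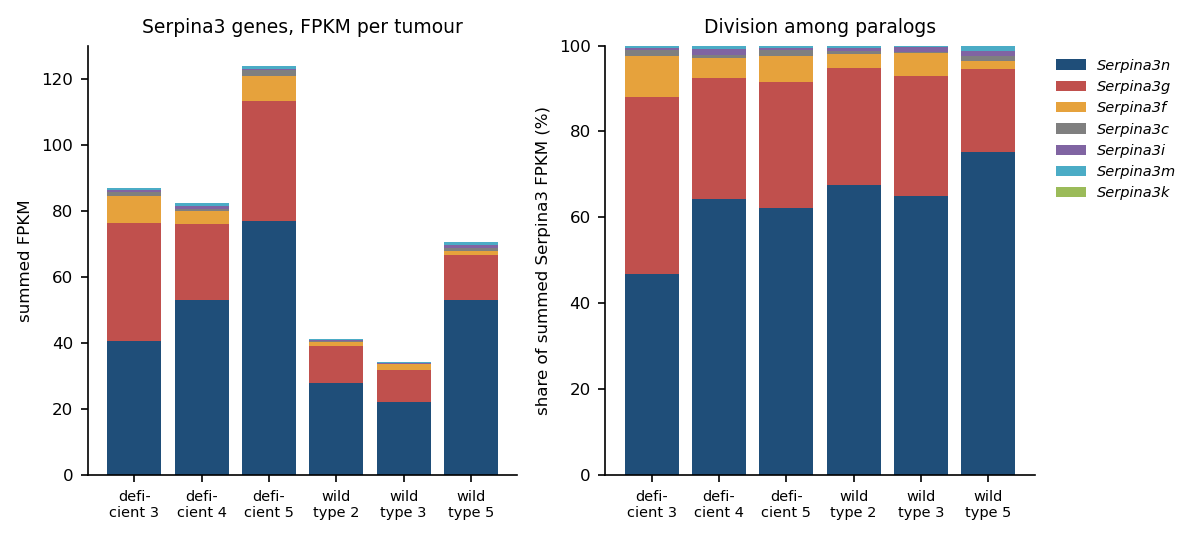
Left, summed FPKM of the Serpina3 genes in each tumour; right, each paralog's percentage of that sum; bars are stacked by paralog in the colours of the legend, with deficient tumours left of wild-type tumours. The sums are 82.4 to 124.0 in deficient and 34.2 to 70.6 in wild-type tumours, and Serpina3n and Serpina3g fill most of every bar.

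Among the intracellular clade B members, Serpinb9 was slightly higher in every deficient tumour, while Serpinb6b and Serpinb9b were not. Serpinb9 had FPKM of 26.5, 23.2 and 25.5 in deficient 3, 4 and 5, against 21.9, 21.1 and 19.3 in wild type 2, 3 and 5. Serpinb9 averaged 25.1 ± 1.70 FPKM in deficient tumours and 20.8 ± 1.29 FPKM in wild-type tumours (SD, n = 3 each), and its log2 fold change was 0.26 (SE 0.09, 95% interval 0.05 to 0.47), which did not pass over all genes (adjusted p = 0.233). The lowest deficient tumour, deficient 4, lay above the highest wild-type tumour, wild type 2.

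Serpinb6b, the granzyme A inhibitor, had FPKM of 46.0, 46.3 and 54.6 in deficient tumours, against 53.8, 58.0 and 48.8 in wild-type tumours. The groups overlapped, and the log2 fold change of -0.13 had a 95% interval from -0.36 to 0.11 (adjusted p = 0.615). An increase as large as those of Serpina3f and Serpina3g lies outside that interval. Serpinb9b had FPKM of 6.65, 5.20 and 1.94 in deficient tumours, against 4.33, 5.81 and 6.64 in wild-type tumours. Deficient 5 was by far the lowest tumour and deficient 3 the highest, so the groups overlapped. Its log2 fold change was -0.33 (95% interval -1.10 to 0.44, adjusted p = 0.687), and 0.078 without deficient 5.

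By mean FPKM over the 6 tumours, a level per length, the order was Serpinb6b (51.3), Serpina3n (45.6), Serpinb9 (22.9), Serpina3g (21.6), Serpinb9b (5.09), Serpina3f (4.06), Serpina3m (0.558) and Serpina3i (0.546). The order depended on the group: Serpina3n was above Serpinb6b, Serpina3g above Serpinb9 and Serpina3f above Serpinb9b in the means of deficient tumours, and each pair stood the other way in those of wild-type tumours. Neighbours mostly overlapped in their ranges over tumours. Serpinb6b (46.0 to 58.0) lay inside the range of Serpina3n (22.2 to 77.0), and Serpinb9 (19.3 to 26.5) inside that of Serpina3g (9.59 to 36.4). Serpina3n and Serpinb9 overlapped only between 22.2 and 26.5. No overlap was seen between Serpina3g and Serpinb9b (1.94 to 6.65), or between Serpina3f (1.32 to 8.26) and Serpina3m (0.108 to 0.941).

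Granzymes include the proteases that Serpina3n, Serpinb9 and Serpinb6b are known to block. Of 12 granzyme, perforin and serglycin genes, 10 could be tested, all 10 had a positive log2 fold change in deficient tumours and 6 were called. Gzmd, Gzmg, Gzmk and Srgn were not called, and Gzmm, too low to be tested, averaged 0.288 FPKM in deficient and 0.354 FPKM in wild-type tumours. Their median log2 fold change was 1.61. Gzmb, which encodes granzyme B, had FPKM of 5.07, 8.33 and 5.57 in deficient tumours, against 2.08, 2.19 and 1.22 in wild-type tumours (log2 fold change 1.36, adjusted p = 0.034). Gzma, which encodes granzyme A, had 2.42, 2.29 and 1.93, against 0.230, 0.642 and 0.0583 (1.32, adjusted p = 0.027), and Prf1, the pore-forming perforin, was at 1.30 (adjusted p = 0.012). The groups did not overlap in Gzmb or Gzma. Gzma passed the filter on low values only through deficient tumours (mean 2.22 FPKM, against 0.310 FPKM in wild-type tumours). The 1 added to each FPKM before the log also understates its change.

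The ratio of Serpinb9 to Gzmb FPKM was 5.23, 2.78 and 4.59 in deficient 3, 4 and 5, against 10.5, 9.61 and 15.8 in wild type 2, 3 and 5. The ratio of Serpinb6b to Gzma FPKM was 19.0, 20.2 and 28.3 in deficient tumours, against 233.8, 90.4 and 836.2 in wild-type tumours. Both inhibitors exceeded their protease in every tumour, and both ratios were lower in every deficient tumour than in every wild-type tumour. The wild-type values of the second ratio rest on a Gzma level below 1 FPKM. The means were 4.20 ± 1.27 in deficient and 11.98 ± 3.34 in wild-type tumours for the first ratio, and 22.5 ± 5.07 in deficient and 386.8 ± 395.7 in wild-type tumours for the second (SD, n = 3 each). Wild type 5 carried much of the second: the difference, deficient minus wild type, was -364.3 with all tumours and -139.6 without it. These ratios of RNA in whole tumours are descriptions with no test, and a whole tumour does not show whether inhibitor and protease were in the same cells.

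**Figure D3:**
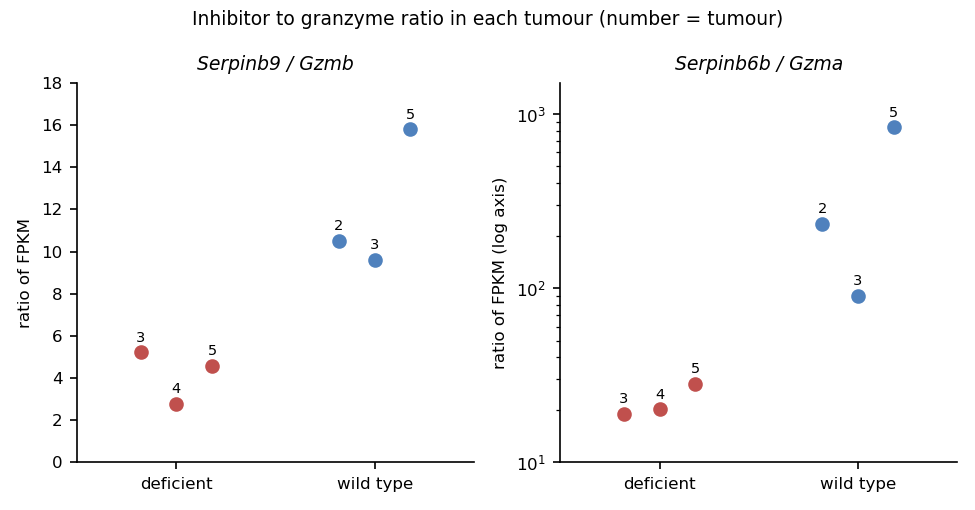
Ratio of FPKM in each tumour for Serpinb9 over Gzmb (linear axis) and Serpinb6b over Gzma (log axis), deficient left and wild type right, with points numbered by tumour. Deficient tumours lie at 2.78 to 5.23 and 19.0 to 28.3, below all wild-type tumours at 9.61 to 15.8 and 90.4 to 836.2.

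A further list of 16 genes held cathepsins, mast cell and neutrophil serine proteases, the metalloprotease Mmp9 and the inflammatory caspase Casp1. Of these 13 were tested, 8 were higher, 5 lower and 1 was called, Casp1 (log2 fold change 0.66, adjusted p = 0.031). The median of 0.19 lies between members that went both ways. Of the 8 tested cathepsins, which include targets of Serpina3g, 7 had positive and 1 a negative log2 fold change, and 0 were called. They lay between -1.22 for Ctsk (adjusted p = 0.385) and 1.084 for Ctsw (adjusted p = 0.150), with Ctsh (0.52, adjusted p = 0.084) the closest to the threshold.

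Serpina3 genes are known targets of interferon and acute-phase signalling, and genes of these pathways were counted as lists. Of 24 genes of the interferon gamma response, all tested, 23 were higher and 8 called, and their median was 0.99 on the log2 scale. The 3 with the smallest p were the immunoproteasome subunits Psmb9 (1.41) and Psmb8 (1.34) and the guanylate-binding protein Gbp4 (1.64). Ifng itself was also called (0.96, adjusted p = 0.047). It passed the filter on low values only through deficient tumours (mean 1.29 FPKM, against 0.168 FPKM in wild-type tumours). The 1 added to each FPKM before the log understates its change too. Of 25 genes of the IL-6, STAT3, NF-kappaB and acute-phase list, 19 were tested, 14 were higher and 1 was called, the acute-phase gene Saa3 (3.28, adjusted p = 0.043). The median of that list was 0.19, with Stat3 at -0.12 (adjusted p = 0.530) and Socs3 at 0.32 (adjusted p = 0.670).

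Among the serpins outside the set, 12 of 35 passed the filter on low values, 7 were higher and 5 lower, and 1 was called. This was Serpina6, which encodes corticosteroid-binding globulin and fell, with FPKM of 0.249, 0.272 and 0.0824 in deficient 3, 4 and 5, against 1.79, 2.98 and 1.16 in wild type 2, 3 and 5. The groups did not overlap. Serpina6 passed the filter on low values only through wild-type tumours, with means of 1.98 FPKM there and 0.201 FPKM in deficient tumours. Its log2 fold change was -1.27 (SE 0.22, adjusted p = 0.045). That call was lost without deficient 3, deficient 5, wild type 2 or wild type 3, with no filter, with quantile normalization and with a pseudocount of 2. The log2 fold change stayed between -1.48 and -1.04 without 1 tumour, and was -0.83 with a pseudocount of 2 and -2.76 with one of 0.1. Serpina6 is made mainly in the liver. Of 8 hepatocyte genes in the table, Ahsg (fetuin-A) supplied most of a summed FPKM of 19.2 to 69.3 in deficient and 89.8 to 148.8 in wild-type tumours, and its own log2 fold change was -1.60 (adjusted p = 0.140). The other 7 were below 1 FPKM in every tumour and went both ways, and Apob averaged 0.0547 FPKM in deficient tumours and 0.00183 FPKM in wild-type tumours. Their part in the Serpina6 result was not tested. Serpinh1, a collagen chaperone, Serpinf1 (pigment epithelium-derived factor) and Serpinb6a, a broad cytosolic inhibitor, were the most abundant, and their log2 fold changes were -0.30, -0.10 and 0.18 (adjusted p = 0.529, 0.890 and 0.339). The median over these 12 was 0.18. Serpina3c, the paralog with the promoter most like that of Serpina3n, was at 0.65 (adjusted p = 0.260), with FPKM of 1.19, 0.694 and 1.71 in deficient tumours, against 0.311, 0.0862 and 0.833 in wild-type tumours.

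**Figure D4:**
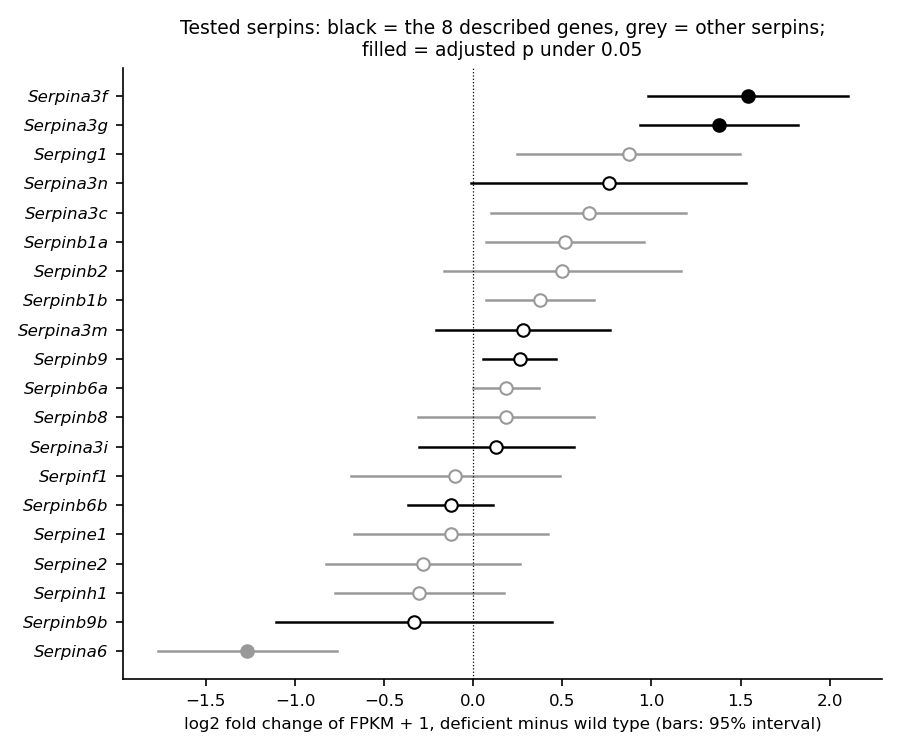
Log2 fold change of FPKM + 1, deficient minus wild type (horizontal axis), of the 20 tested serpins, with bars for 95% intervals, black for the 8 described genes and grey for the others, and filled circles for an adjusted p under 0.05. Serpina3f (1.54) and Serpina3g (1.38) are at the top and Serpina6 (-1.27) at the bottom.

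The genes whose log2 values followed a serpin most closely over the 6 tumours were found by the mean absolute difference after each gene was centred on its own mean. For Serpina3g these were Cd8b1, Ccr2 and Cd8a, at mean differences of 0.08, 0.10 and 0.10 log2 units. Cd8a and Cd8b1 encode the chains of the CD8 co-receptor, and Ccr2 is a chemokine receptor of monocytes. For Serpina3n they were Dusp22, a phosphatase, Cygb, a globin of stromal cells, and Lrg1, an acute-phase glycoprotein, at 0.14, 0.14 and 0.15. For Serpinb9 they were Usb1, Hpgds and Pnp at 0.02, 0.02 and 0.02, a small distance because Serpinb9 itself varied little. All values compared come from the same 6 libraries, and the choice was made among 12257 genes. Centring over all tumours keeps the difference between groups, so genes with a similar fold change come close. The log2 fold changes were 1.38 for Serpina3g, 1.35 for Cd8b1, 1.39 for Ccr2 and 1.32 for Cd8a. Which cells made Serpina3g was not tested.

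**Figure D5:**
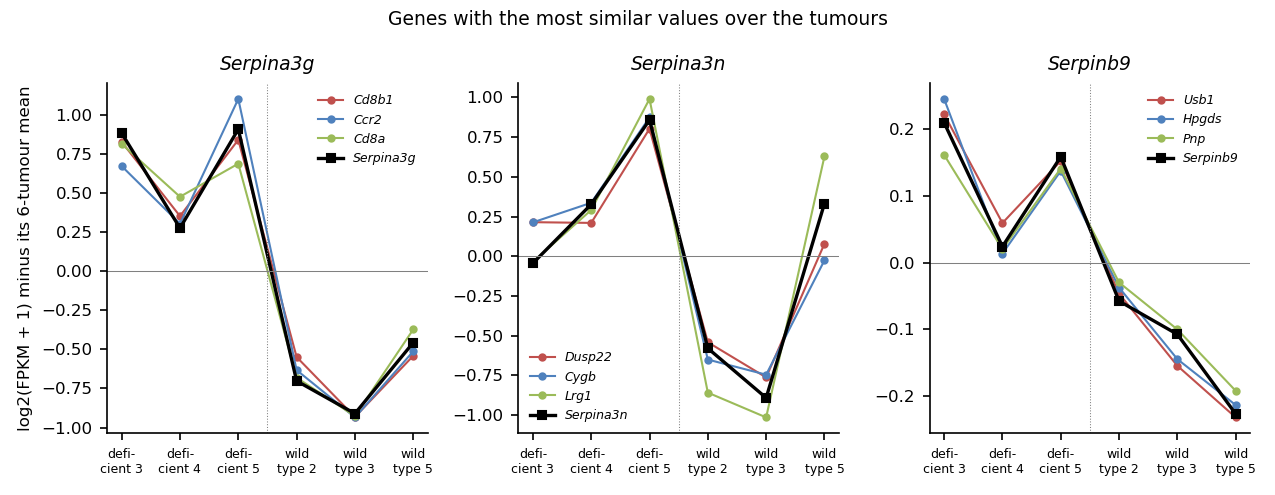
Log2(FPKM + 1) of Serpina3g, Serpina3n and Serpinb9 (black squares) and of the 3 most similar genes for each (coloured circles), centred on the mean of the 6 tumours; lines only join the values of a gene, and deficient tumours are left of the dotted line. The serpins and their nearest genes stay within mean differences of 0.10, 0.15 and 0.02 log2 units.

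Markers of other cell types were counted in the same fit, since in bulk tumours more cells of a type and more RNA per cell cannot be told apart. Of 14 tested markers of cytotoxic lymphocytes, 13 were higher and 5 called, with a summed FPKM (16 genes) of 69.0 to 107.7 in deficient and 33.0 to 48.8 in wild-type tumours. All 14 macrophage and monocyte markers were higher and 3 called (summed FPKM 4154 to 7108 in deficient and 3974 to 4493 in wild-type tumours, which overlap). Lyz2 was the largest part of that sum in every tumour, at 1918 to 4205 in deficient and 2019 to 2411 in wild-type tumours. Its own groups overlapped, so the overlap of the sums says little about the other markers. Of 15 adipocyte markers 14 were higher and 0 called (summed FPKM 243.7 to 671.2 in deficient and 153.0 to 265.1 in wild-type tumours, which overlap). The highest adipocyte sum of each group was in the tumours numbered 5, as for Serpina3n. The same held for the cytotoxic lymphocyte, dendritic cell and endothelial sums. Deficient 4 had the lowest adipocyte sum of its group, whereas Serpina3n was lowest in deficient 3. Retn, a marker of mouse adipocytes, was listed at 0 in wild type 3. B and plasma cell markers had 4 of 5 higher and 2 called, with overlapping sums (266.5 to 339.1 in deficient and 252.1 to 347.3 in wild-type tumours). Sdc1 made up most of these sums, at 196.8 to 248.6 in deficient and 236.7 to 337.6 in wild-type tumours. It was the tested gene that was lower (log2 fold change -0.28), so the sums say little about the other markers. The part of these cells in the serpin values was not tested.

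The remaining marker lists had 0 called genes. Higher were 7 of 9 dendritic cell, 2 of 6 neutrophil, 0 of 6 mast cell, 4 of 11 fibroblast, 5 of 8 endothelial, 7 of 10 tumour epithelial, 0 of 5 skeletal muscle and 2 of 3 keratinocyte markers. Both tested hepatocyte markers were lower, and Alb, which defines hepatocytes and encodes albumin, was listed at 0 to 0.104 FPKM in deficient tumours and at 0 in all wild-type tumours.

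Anxa1 was abundant in both groups, averaging 290.2 FPKM in deficient tumours and 363.5 FPKM in wild-type tumours (log2 fold change -0.33, adjusted p = 0.268). The implied depth was 37470000 to 41070000 fragments per library. Y-linked transcripts separated the same libraries as the genotype: the summed FPKM of Ddx3y, Eif2s3y, Kdm5d and Uty was 0.00291 to 0.239 in deficient and 5.21 to 10.6 in wild-type tumours, and both tested ones (Ddx3y among them) were called lower. A difference in the sex of the hosts, or another difference that goes with these genes, cannot be told apart from the genotype in any comparison above.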

How the data were processed

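Whole-tumour RNA was sequenced from both fragment ends in 150-base reads, using a VAHTS Universal V6 library kit, per the labels' protocols. HISAT2, HTSeq and R 3.2.0 are named in the submitters' processing notes, with no role stated; for the genome build and the gene annotation, none is given in the sources used here. The authors deposited 1 table with 1 column per library, read here as FPKM because of how its numbers behave, since no header names the unit. Low values were whole multiples of a step (tolerance 0.001), which gave fragment numbers per gene as the smallest whole numbers. The depth was set by 231 genes with a GENCODE M21 exon length.

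Tumours were grouped by their titles. limma 3.58.1 (R 4.3.3) with a variance trend was fitted across all genes on log2(FPKM + 1), with genes of a mean FPKM under 0.5 left out (12257 tested), no block, two-sided p and Benjamini-Hochberg adjustment. No label gives litters, batches or a pairing of animals, so p-values measure only the spread between these samples, which may be technical. The fit was also run on simulated data, in 5 runs with 200 changed genes each. Noise there was drawn independently for each gene. It therefore cannot show how shifts shared by many genes of a tumour affect the calls. The 8 genes and the gene lists were chosen with earlier results of these data known. Named genes were the 8 serpins, called other serpins and the 3 most abundant other serpins. Up to 3 called genes per pathway list, and the 3 genes most like each of Serpina3g, Serpina3n and Serpinb9, were also named. Ifng, Ctsh, Ctsk, Ctsw, Mmp9, Gzmd, Gzmg, Gzmk, Gzmm and Srgn were added after their values were seen. So were Apob, Stat3, Socs3, Anxa1, Serpina3c, Ddx3y, Ahsg, Retn, Alb, Lyz2 and Sdc1. Alternatives were 3 other scalings, 3 pseudocounts, 2 filters, no trend, a replicate block and leaving out each tumour.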

Additional observations from a re-analysis of the deposited data

How the results depend on the processing

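Serpina3f and Serpina3g were the called members under every scaling, pseudocount and stricter filter tried and with no variance trend. With no filter on low values, 0 of the 8 serpins were called, with 10 genes higher and 8 lower over all genes; adjusted p was 0.127 for Serpina3f and 0.105 for Serpina3g at the same fold changes, over 17352 genes tested. Quantile normalization left 74 genes higher. Without 1 tumour, the calls were 7 to 270 genes higher, 3 to 66 lower and 0 to 2 serpins higher (2 without deficient 4, 0 without any other), with adjusted p from 0.007 to 0.148 for Serpina3g and from 0.005 to 0.165 for Serpina3f. Their direction did not change in any of the 16 alternatives, nor did those of Serpina3n, Serpinb9, Serpinb6b and, in the 15 that tested it, Serpina3m. Serpina3i was at -0.14 with the replicate block and between -0.038 (without deficient 4) and 0.26 without 1 tumour, and Serpinb9b between -0.61 and 0.078 (without deficient 5). The ratio of summed Serpina3 FPKM was between 1.74 and 2.59 without 1 tumour. The cause of these changes was not tested.

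Only the numbers 3 and 5 occur in both groups. Deviations from the group means of tumours with the same number correlated across genes at -0.0897 and -0.00847. Tumours with different numbers correlated at -0.208 to 0.224. With 3 tumours per group, these values cannot decide whether the numbers mark a pairing, and no label gives one. The replicate block called 633 genes higher and 354 lower, with 1 residual degree of freedom. Tumours whose number occurs in only 1 group add nothing to the fold changes of that fit. All its calls therefore rest on differences between tumours numbered 3 and between tumours numbered 5, matched by label alone. The block added Serpina3n among the 8 (log2 fold change 0.69, adjusted p = 0.018), and Serpina3c and Serping1 outside them. Serpina3i and Serpina3m rest on few fragments, 7 to 94 in a tumour.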

Other observations

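Serpinb5 and Serpina1d were too low to be tested and, like Serping1, are named after their values were seen. Serpinb5 (maspin, an epithelial serpin) had FPKM of 0.168, 0.108 and 0.452 in deficient 3, 4 and 5, against 0.00938, 0 and 0.00952 in wild type 2, 3 and 5. Serpina1d, a paralog of the gene for alpha-1-antitrypsin that lies near Serpina6 in the same gene cluster, had 0.148, 0.186 and 0.0552 in deficient tumours, against 0.316, 0.463 and 0.0356 in wild-type tumours, where wild type 5 was the lowest of all. Serping1, which encodes the C1 inhibitor of the complement cascade, was high in all tumours, with FPKM of 145.3, 104.0 and 170.6 in deficient tumours, against 50.9, 77.9 and 103.8 in wild-type tumours. Its groups did not overlap, and its log2 fold change of 0.87 did not pass over all genes (adjusted p = 0.196).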
